A study of Ovis aries with 6 samples.

Results

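Genes that were well expressed in untreated rumen epithelial (RE) cells of sheep and at least doubled after sodium butyrate (SB) numbered 133, of 27452 identifiers in the count table. They were selected on the measured counts themselves. The choice took Ensembl identifiers with a mean of at least 5 CPM (counts scaled to a common library size) in the untreated cells, left out the 200 highest untreated means, and kept those whose mean normalized count in SB was at least 2 times that in the untreated cells. The lowest SB sample also had to exceed the highest untreated sample. A normalized count is the count divided by the size factor of its library, a median of ratios over the genes with counts in every sample. Of the 26478 Ensembl identifiers, 10026 reached the minimum of 5 CPM and 9826 remained after the most abundant were removed. These 9826 are called the control-level window, and the 133 members were 1.35% of it.

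The RE cells were primary cells isolated from the rumen of newborn Hu lambs. The 3 SB samples were cultured with 1 µM SB for 24 h. The 3 control samples (Con) received no treatment, and all 6 shared the same wild-type genotype and medium. That medium held serum, epidermal growth factor, hydrocortisone, insulin, transferrin, cholera toxin and triiodothyronine. Each group consisted of triplicate wells, so the spread between samples is that between wells, and how many lambs gave the cells is not given in the sources used here. The columns taken as Con are headed by a letter that the study's files also use for untreated samples of a different experiment, so their identity is less certain than that of the SB columns.

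The rumen is lined by a stratified squamous epithelium that absorbs and metabolizes short-chain fatty acids made by the microbes inside it. Butyrate is among these acids. The epithelium uses it as a fuel and turns much of it into ketone bodies, and butyrate is also a well-known inhibitor of histone deacetylases, enzymes that remove acetyl groups from histones. The study asked whether SB acts on RE cells through the transcriptional co-activators YAP1 and TAZ. The table pairs no identifier with a gene name, and 0 identifiers matched the reference gene table. The members are therefore described by their levels, and their functions, their sequences and the markers of RE cells were not analysed here.

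Total counts lay between 15869476 and 16582791 in Con and between 16888522 and 18152857 in SB. Counting noise alone was smaller than the differences within groups, with a chi-square per gene of 4.08 to 9.42 for pairs of the same group. In bulk RNA a gene that is higher in every cell and a change in the mixture of cells cannot be told apart. The comparison of Con and SB chose the members, so their levels and ratios are given as a description with no test.

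Members were found over most of the range of control levels that the rule allowed, from 5 to 628 CPM. Their Con means ranged from 5.05 to 591 CPM with a median of 22.5 CPM, and their SB means from 9.35 to 1110 CPM with a median of 60.9 CPM. The SB to Con ratio of normalized counts had a median of 2.48 and quartiles of 2.17 and 3.05. Most members lay close to the threshold, with 71 of 133 under 2.5, 27 from 2.5 to under 3, and 15 from 3 to under 4. The other 20 were at least 4 times higher in SB, 6 of them at least 8 times. Over the whole window the ratio had a median of 0.991 and quartiles of 0.811 and 1.17, and 48.7% of its genes were above 1. The size factors themselves place the typical ratio near 1, so this median and this share were largely set by the scaling. Across the 13103 genes tested in DESeq2, the median log2 fold change was -0.0101 with these factors and -0.208 with total-count scaling.

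**Figure D1:**
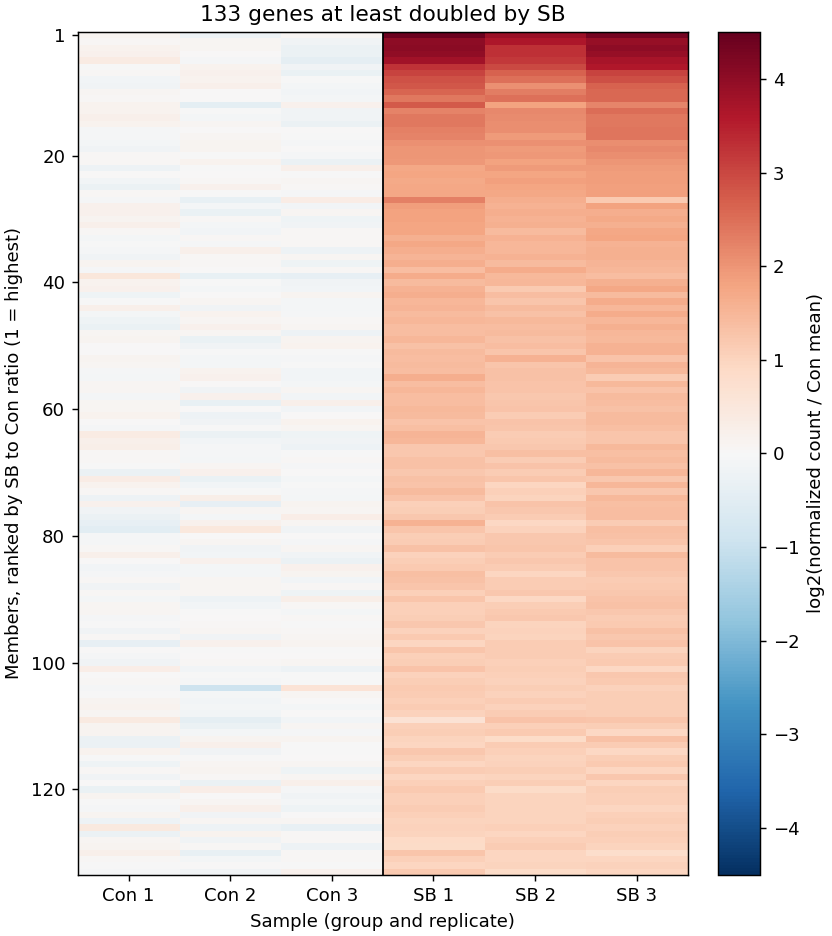
Each row is 1 of the 133 members, ranked by SB to Con ratio, and each column is 1 sample. Color gives log2 of the normalized count over the Con mean of that gene. The 3 SB columns are raised in every row, as the rule required. They are raised most strongly in the 20 rows at the top, where SB replicate 2 is the lowest SB sample in 18.

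The highest ratio belonged to ENSOARG00020008614. Its normalized counts were 353, 278 and 353 in Con replicates 1 to 3 and 7008, 4676 and 6541 in SB replicates 1 to 3. The groups were far apart, and SB replicate 2 was the lowest of the treated samples. The mean was 328 ± 43.2 for the 3 Con samples and 6075 ± 1234 for the 3 SB samples (± SD), a ratio of 18.5. Any single SB sample was 13.2 to 25.2 times any single Con sample. By mean CPM the gene moved from place 6684 among the Ensembl identifiers in Con to place 441 in SB.

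The largest gain in counts was that of ENSOARG00020005568. Its normalized counts were 4067, 4257 and 4270 in Con and 20074, 17759 and 22065 in SB. Again the groups did not overlap and SB replicate 2 was the lowest SB sample. The mean was 4198 ± 114 for the 3 Con samples and 19966 ± 2155 for the 3 SB samples (± SD), a ratio of 4.76. This gene stood at place 571 in Con and at place 106 in SB.

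The members that followed in the order of ratios started from low control levels. The second had 254, 261 and 222 normalized counts in Con and 3967, 3057 and 3700 in SB, a ratio of 14.6. The third had 383, 358 and 281 in Con and 5628, 3320 and 5533 in SB, a ratio of 14.2. In both, SB replicate 2 was the lowest SB sample and Con replicate 3 the lowest Con sample. The fourth rose from 245, 220 and 178 to 3422, 2081 and 3215, a ratio of 13.6. The fifth rose from 265, 197 and 155 to 2851, 1863 and 2660, a ratio of 11.97. The sixth rose from 97.6, 109 and 89.2 to 944, 768 and 1187, a ratio of 9.80. All 6 genes with a ratio of at least 8 had Con means between 6.28 and 21.7 CPM and SB means between 53.6 and 338 CPM.

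Doubling was found at every control level of the window, but its size differed. Members made up 2.42% of the 1362 genes from 5 to under 10 CPM and 1.46% of the 1846 genes from 10 to under 20 CPM. Their share was 1.10% of the 2999 genes from 20 to under 50 CPM, 1.03% of the 1939 genes from 50 to under 100 CPM and 1.19% of the 1680 genes at 100 CPM or more. The 20 members with a ratio of at least 4 comprised 17 genes under 50 CPM in Con, 0 from 50 to under 100 CPM and 3 at 100 CPM or more. From the lowest of these control levels to the highest, the members had median ratios of 2.49, 2.60, 2.56, 2.27 and 2.20. Across the 133 members the Spearman correlation of control level and ratio was -0.14, where the ratio is cut off at 2, and across the 9826 window genes it was 0.25. These values are across genes that share the same 6 libraries.

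**Figure D2:**
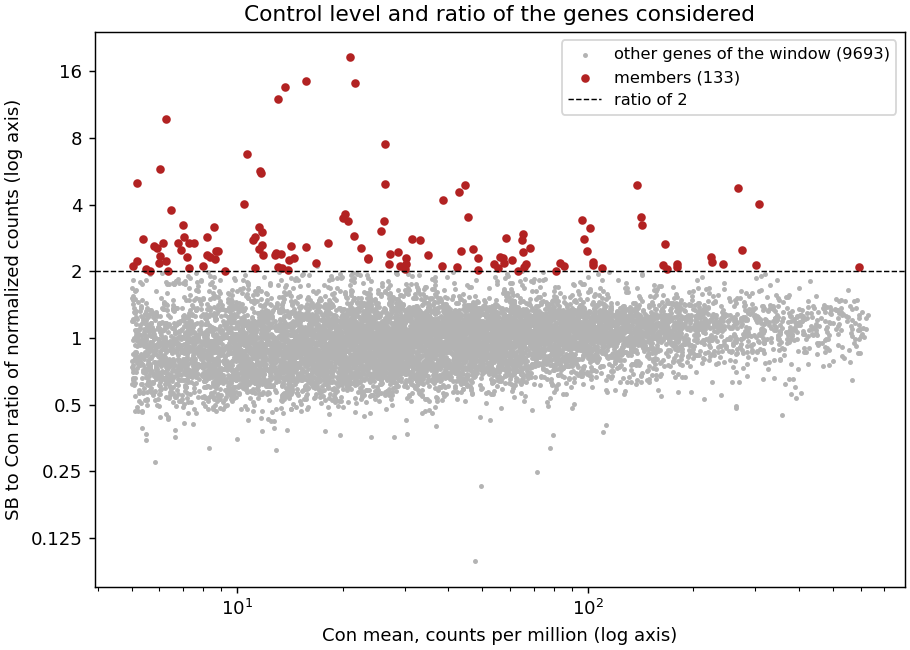
Each point is a gene of the control-level window, with its Con mean in CPM on the horizontal log axis and its SB to Con ratio on the vertical log axis. The 133 members (red) lie above the dashed line at a ratio of 2, and all ratios of at least 8 belong to genes with Con means under 50 CPM.

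A minority of members held at least 50% of the summed gain in normalized counts, which are not corrected for gene length. The members together held 0.722%, 0.712% and 0.712% of all counts in Con replicates 1 to 3 and 1.81%, 1.68% and 1.84% in SB replicates 1 to 3. The mean share was 0.716 ± 0.00569% for Con and 1.78 ± 0.0825% for SB (SD over 3 samples each), a difference of 1.06 percentage points. The 5 genes with the largest gains accounted for 26.8% of the summed gain in normalized counts and the 10 largest for 39.5%, and 16 genes sufficed for at least 50% of it. Large ratios and large gains were often found in different genes, since 6 genes were among the first 20 by both. In SB 3 members stood among the 200 highest means, and 31 stood among the 1000 highest means, where 11 had stood in Con.

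The groups were apart in all 133 members by choice, which was so, with SB higher, for 28.6% of the window. Leaving this requirement out would have added 1 gene, whose 3 SB values were 259, 1122 and 307 normalized counts against 211, 272 and 312 in Con, so that SB replicate 2 alone set its ratio of 2.12. How far apart the groups were varied. In 71 members (53.4%) all 9 ratios of a single SB sample to a single Con sample were at least 2, and the lowest of the 9 had a median of 2.05. The narrowest separation was found in the member with the lowest control level, which had raw counts of 108, 63 and 73 in Con and 116, 196 and 186 in SB. A count of 63 alone carries a counting error of 12.6%, and 22 members had a Con count under 100 in at least 1 sample.

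The members just inside the threshold had ratios of 2.0001, 2.0038 and 2.0045, and the genes just outside it, which met every other condition, had ratios of 1.999, 1.987 and 1.985. The first gene inside had 141, 129 and 164 normalized counts in Con and 324, 260 and 284 in SB. The first gene outside had 899, 1033 and 1113 in Con and 1911, 2032 and 2144 in SB. The spread between samples was larger than the distance of either gene from the threshold. A further 384 genes of the window had groups apart and a ratio from 1.5 to under 2. Outside the window, the same ratio and separation were met by 514 genes below 5 CPM and by 3 of the 200 most abundant genes, whose ratios were 2.02, 2.10 and 2.11. Of the 260 loci without an Ensembl identifier in the same range of control levels, 1 (0.385%) met the conditions, with a ratio of 2.51.

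In the fit across all genes tested, DESeq2 called all 133 members higher in SB (adjusted p under 0.05 and log2 fold change over 1), where 3.08% of the 13103 genes tested were called higher. All 133 had passed the filter on low counts. The standard errors of their log2 fold changes ranged from 0.0557 to 0.422 with a median of 0.12. When the fold change itself was tested for exceeding 2, 49 members were called higher, beside 0.641% of all genes tested called higher. The rule used the same contrast, so these counts only describe the members.

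The counts of the members depended on the scaling of the libraries. With total-count scaling 87 of the 133 still met the rule, and no other gene joined them. The median ratio of the 133 then became 2.16. Genes halved under the mirrored rule numbered 96 with median-of-ratios factors and 317 with total-count scaling, so that doubled genes were 58.1% of both classes together with the first scaling and 21.5% with the second.

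The only values that the rule did not use are those of a sample left out of it. Genes were therefore chosen again on 5 samples and read in the sample left out. The samples of the other group, and the size factors, still entered both the choice and the reading. Without a single SB sample the rule found 136, 137 and 137 genes (SB replicates 1, 2 and 3 left out, in this order), and the median ratio read in the sample left out was 2.49, 2.33 and 2.55. A ratio of at least 2 was found there for 119, 114 and 118 of these genes, or 87.5%, 83.2% and 86.1%, beside 1.49%, 1.34% and 1.62% of the window. The value left out exceeded every Con sample in 135, 137 and 136 genes, beside 38.3%, 36.6% and 37.6% of the window. The same Con samples had helped to choose the genes as low.

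Without a single Con sample the rule found 147, 137 and 144 genes (Con replicates 1, 2 and 3 left out). The median ratio of the SB samples to the Con sample left out was 2.38, 2.52 and 2.43, and it was at least 2 in 104, 110 and 111 genes, or 70.7%, 80.3% and 77.1%, beside 1.56%, 1.92% and 1.65% of the window. The Con sample left out was below every SB sample in 145, 136 and 138 genes, beside 38.0%, 40.1% and 40.5% of the window. Its ratio was under 1 for 1 gene in Con replicate 1, at 0.65, and for 4 genes in Con replicate 3, the lowest at 0.765. Of the 133 members, 107 (80.5%) were found in all 6 of these choices. They comprised 61 of the 62 members with a ratio of at least 2.5 and 46 of the 71 below it. The exception among the former had a ratio of 5.00 and a Con mean of 5.18 CPM. Its lowest ratio of a single SB sample to a single Con sample was 3.08. This gene was therefore lost through the minimum of 5 CPM and not through its ratio. Leaving out Con replicate 1 cost the most members, 13, of which 9 fell under the ratio of 2 and 4 under the minimum of 5 CPM.

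**Figure D3:**
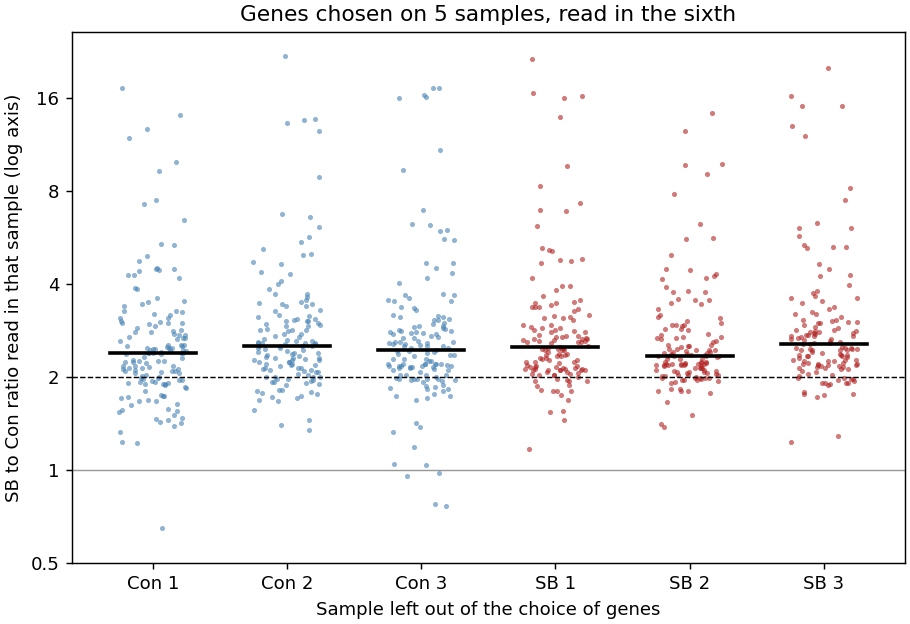
Each point is a gene chosen by the rule on 5 samples, and its height is the SB to Con ratio read with the sixth sample, named below, on a log axis. Black bars are medians, between 2.33 and 2.55, the dashed line marks a ratio of 2, and the gray line a ratio of 1.

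Members varied between samples of a group somewhat more than the window did. The coefficient of variation (SD over mean) of normalized counts had a median of 10.7% in Con and 8.41% in SB, beside 7.97% and 6.75% for window genes. Counting error alone had a median of 5.23% in Con and 3.05% in SB for the members, and of 4.29% and 4.41% for window genes, so that in Con it was also larger for the members. The variation in SB was larger among the 20 members with a ratio of at least 4, with a median of 14.1%, than among the other 113, with 7.38%. In Con the medians of these classes were 10.8% and 10.7%. The most variable member in SB had 1556, 1007 and 730 normalized counts there and 313, 255 and 405 in Con. The most variable in Con had 406, 220 and 649 normalized counts, beside 963, 921 and 868 in SB.

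The SB samples took different places among the members. In 77 of 133 members (57.9%) the lowest SB value was that of replicate 2, whereas SB replicates 1 and 3 were lowest in 38 and 18. In the window SB replicate 2 was lowest in 31.5% of genes. SB replicate 3 was the highest SB sample in 68 members (51.1%), beside 37.7% of window genes. The median of a member's count over the mean of the other SB samples was 1.02, 0.938 and 1.06 in SB replicates 1, 2 and 3. By these medians, though not by the counts of members, SB replicates 2 and 3 stood off about equally far in opposite directions. SB replicate 2 lay farther off than the others among the 20 members with a ratio of at least 4, where it was lowest in 18, and it was lowest in all 6 with a ratio of at least 8. The median ratio of these 20 genes to the Con mean was 6.49, 4.70 and 6.06 in SB replicates 1, 2 and 3. Without SB replicate 2 the median ratio of the 20 genes was 5.92, beside 5.64 with it.

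Across the window, the position of SB replicate 2 changed with the SB to Con ratio, in a direction that the sorting itself favors. In a comparison chosen after these values were seen, each sample was compared with the mean of the other 2 of its group, over genes divided by the ratio in the remaining 5 samples. These other 2 samples also entered the sorting ratio. Noise in them alone therefore gives SB samples medians that fall with the ratio and Con samples medians that rise with it. How much of each trend came from this sharing was not tested. The median for SB replicate 2 was 1.09 in genes with a ratio of 0.5 or less, 0.995 in genes from 0.8 to under 1.25, 0.961 from 1.5 to under 2, 0.944 from 2 to under 3, 0.915 from 3 to under 4, and 0.779 at 4 or more. In the last class 20 of 20 genes were below the mean of the other SB samples. SB replicates 1 and 3 had medians of 1.10 and 1.13 in that class and of 0.988 and 1.02 from 2 to under 3. Among genes with a ratio of 0.5 or less, their medians of 1.07 and 1.16 were above 1, like that of SB replicate 2.

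Among the controls, Con replicate 1 was somewhat more often nearest to the SB samples. It was the highest Con sample in 58 of 133 members (43.6%), beside 37.0% of window genes, and the lowest in 49 of the 96 halved genes (51.0%), beside 37.8% of window genes. By the same comparison its median was 0.852 in genes with a ratio of 0.5 or less, 1.01 from 0.8 to under 1.25, 1.07 from 1.5 to under 2, and 1.08 from 2 to under 3. Con replicates 2 and 3 were also under 1 in genes with a ratio of 0.5 or less, at 0.970 and 0.934. Con replicate 3 took the opposite place in the genes that responded most. It was the lowest Con sample in 12 of the 20 members with a ratio of at least 4. The same held in 48 of all 133 members (36.1%) and in 29.4% of window genes. The ratio that chose these 20 includes Con replicate 3, and a low value there raises it. Over the 18 window genes with a ratio of at least 4 in the other 5 samples, the median of Con replicate 3 was 0.871. It was 1.07 over 19 such genes for Con replicate 1 and 1.08 over 21 for Con replicate 2. The samples that each one was compared with had helped to sort the genes, while the sample itself had not. This sharing favors the rise seen for Con replicate 1, and how much of that rise came from the sorting was not tested. What made these samples differ was not tested.

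**Figure D4:**
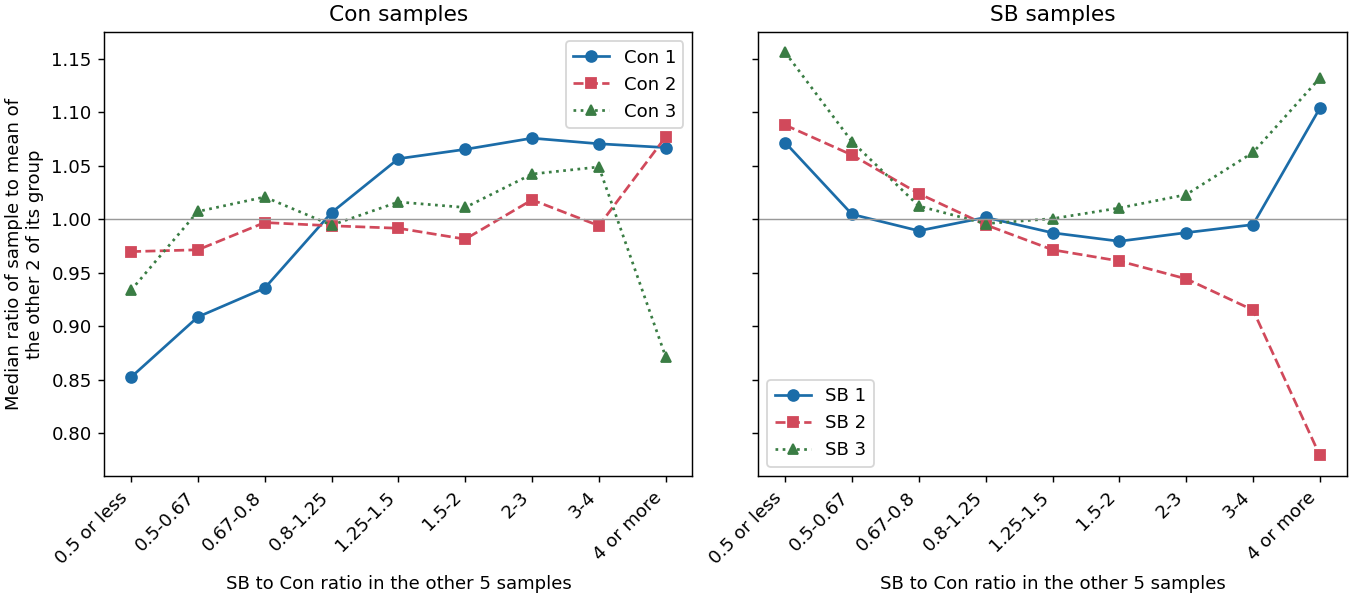
For each Con sample (left) and SB sample (right), the points are medians, over genes of the window grouped by their SB to Con ratio in the other 5 samples, of the sample's normalized count over the mean of the other 2 samples of its group. SB replicate 2 falls from 1.09 to 0.779 from left to right, and Con replicate 1 rises from 0.852 to 1.07. The other 2 samples of the group also entered the sorting, which favors a fall for SB samples and a rise for Con samples.

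The members and the genes that fell under the mirrored rule differed in several measures. The rule found 133 doubled and 96 halved genes, 1.35% and 0.977% of the window, beside 87 and 317 with total-count scaling. Ratios of at least 4 numbered 20 among the 133 doubled genes, whereas 3 of the 96 halved genes fell to 0.25 times Con or less. The median fall was 2.15-fold and the largest 10.2-fold, beside 2.48-fold and 18.5-fold for the members. Halved genes had lower control levels, with a median of 12.7 CPM against 22.5 CPM. Their share fell from 2.64% of genes from 5 to under 10 CPM to 0.298% of genes at 100 CPM or more, where members kept a share of 1.19%. Between the same levels the median ratio of all window genes rose from 0.878 to 1.10. The median of SB replicate 2 to the other SB samples was 1.00 among the halved genes and 0.938 among the members. Among the members it was 0.948 at ratios from 2 to under 3 and 0.779 at 4 or more. The classes were not matched for the size of change. In genes with a ratio of 0.5 or less in the other 5 samples, the median of SB replicate 2 was 1.09. The differences between doubled and halved genes follow from the values that chose both classes and were not tested.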

How the data were processed

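RNA was sequenced from 3 Con and 3 SB samples of primary sheep RE cells. Per the study's methods and the labels, the authors removed poor reads (CASAVA version 1.8) and mapped paired-end reads to the Rambouillet assembly with HISAT2. The counting tool, annotation and strandedness are not given in the sources used here, so genes with near-identical or overlapping neighbors are uncertain. The deposited values are raw counts per gene, not normalized by the authors, and 0 columns of the table were left out. Depth was 15869476 to 18152857 counts per sample, and counting error was largest for genes with few counts.

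Members were found by the rule given above, with size factors computed over all genes with counts in every sample. Of the members, the one with the highest ratio and the one with the largest gain are named, and others are given by rank. SB was compared with Con in DESeq2 (version 1.42.0, R version 4.3.3; Wald test, Benjamini-Hochberg adjustment, no covariate) over the 13103 genes that reached 10 counts in each of the 3 Con or each of the 3 SB samples. Alternatives used edgeR (version 4.0.16) and limma-voom (limma version 3.58.1), other scalings and filters, other limits of the rule, a replicate block, and each sample left out. The fits were tested on simulated data. Members, comparisons and gene lists were chosen with earlier results of these data known. The gene lists could not be used without names.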

Additional observations from a re-analysis of the deposited data

How the results depend on the processing

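The rule found 133 genes. It found 87 with total-count scaling, 210 with a control minimum of 2 CPM, 517 with a ratio of at least 1.5 and 35 with a ratio of at least 3. TMM factors, a minimum of 10 CPM, no removal of abundant genes, overlapping groups, all identifiers and leaving out each sample gave 100 to 147, all within 1.5 times. DESeq2 called 404 genes and 133 members higher. The test against a log2 fold change of 1 called 84 genes and 49 members, and total-count scaling called 278 genes and 86 members. With the replicate block 374 genes and 133 members were called. Leaving out each sample called 362 to 417 genes and 123 to 129 members, and edgeR, limma-voom, TMM factors and no filter on low counts called 396 to 433 genes and 130 to 133 members. Same-numbered samples had deviations that correlated at -0.0032 to 0.0587, so the numbers were not taken as pairs. The median ratio of 2.48 became 2.16 with total-count scaling and ranged from 2.33 to 2.56 when samples were left out or read alone. The difference in share of 1.06 percentage points ranged from 0.965 to 1.11 in the same way. In both ranges the lowest value was that of genes chosen without SB replicate 2 and read in it. The cause of these shifts was not tested, apart from the scaling and limits themselves. Counting error was largest for the members near 5 CPM.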
